A study of Homo sapiens with 6 samples.

Results

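The double-stranded RNA sensing and interferon effector genes described here are 9 genes of 19923 in the count tables: DDX58, IFIH1, DHX58, TLR3, MAVS, EIF2AK2, OAS3, IFI6 and ADAR. They were chosen by symbol, from a list of innate RNA sensing genes, and all 9 had a row in each of the 6 tables. The cells were Kelly, an established human neuroblastoma line with amplified MYCN and, per the labels, a wild-type genotype. Poly(A) RNA was sequenced 72 hours after lipid transfection of a control siRNA (siControl, 3 libraries) or an siRNA against METTL3 (siMETTL3, 3 libraries). Transfection, a 72 hour wait and the growth medium were common to both groups, and no untransfected library was analysed here. The transfected siRNA itself differed between the groups. Whether these genes responded to the siRNA rather than to lower METTL3 mRNA was not tested. METTL3 is the catalytic subunit of the N6-methyladenosine (m6A) writer. The labels do not say whether the libraries of a group came from separate cultures or whether the siRNA was a single sequence, so p-values measure the spread between these libraries only.

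Double-stranded RNA is a sign of viral infection, and cells also make some of it from their own transcripts. DDX58 (RIG-I) and IFIH1 (MDA5) bind it in the cytosol and signal through MAVS on mitochondria, while TLR3 binds it in endosomes. The signal induces interferons, which act through receptors and STAT factors on a set of interferon-stimulated genes. Among these, OAS3 makes the antiviral messenger 2-5A, EIF2AK2 (PKR) shuts down translation, and IFI6 is a small membrane protein of interferon-treated cells. ADAR edits adenosines of double-stranded RNA to inosine, which keeps self RNA from being sensed. Loss of m6A has been linked to double-stranded RNA sensing in other systems. Neither m6A nor METTL3 protein was measured in the libraries used here, so the values below describe these genes at a lower METTL3 mRNA level only.

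The promoters of 4 of the genes are shown because they place the interferon-type motif beside genes that rose, a gene that did not pass the test, and a gene at the detection limit. Each line holds the 210 bases before the RefSeq transcription start and the first 10 transcribed bases (GRCh38.p14), 5′ to 3′ on the gene's own strand. OAS3 is at chr12:112938264-112938483 (plus strand), IFI6 at chr1:27672183-27672402 (minus), EIF2AK2 at chr2:37156971-37157190 (minus) and IFIH1 at chr2:162318675-162318894 (minus). Capitals mark matches, on either strand, to the 10-base form of the interferon-stimulated response element, which is GAAA, any 2 bases and GAAA again, or to the 8-base core of the interferon regulatory factors, AANNGAAA, which overlaps it.
OAS3: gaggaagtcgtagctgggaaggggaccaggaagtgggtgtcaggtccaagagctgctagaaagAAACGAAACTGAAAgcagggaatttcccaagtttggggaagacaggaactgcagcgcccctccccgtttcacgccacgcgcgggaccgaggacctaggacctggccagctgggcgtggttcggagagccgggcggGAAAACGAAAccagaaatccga
IFI6: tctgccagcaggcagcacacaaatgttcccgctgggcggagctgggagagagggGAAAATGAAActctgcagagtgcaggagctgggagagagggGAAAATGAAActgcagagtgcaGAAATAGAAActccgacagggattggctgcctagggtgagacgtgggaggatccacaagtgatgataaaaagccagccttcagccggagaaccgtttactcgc
EIF2AK2: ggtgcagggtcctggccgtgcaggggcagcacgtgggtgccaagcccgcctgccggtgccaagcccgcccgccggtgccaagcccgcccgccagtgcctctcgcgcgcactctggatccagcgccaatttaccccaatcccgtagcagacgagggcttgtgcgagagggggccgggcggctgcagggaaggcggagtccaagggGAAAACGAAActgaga
IFIH1: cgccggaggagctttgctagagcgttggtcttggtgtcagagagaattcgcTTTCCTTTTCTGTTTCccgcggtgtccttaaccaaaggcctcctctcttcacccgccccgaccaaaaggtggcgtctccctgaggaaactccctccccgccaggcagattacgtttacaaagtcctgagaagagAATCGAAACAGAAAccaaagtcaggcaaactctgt

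A RefSeq window from 250 bases before to 50 after the start was found for 8 of the 9 genes (3 windows for ADAR), with none for DHX58. The 10-base form was in 5 of the 8: OAS3, IFI6, EIF2AK2, IFIH1 and TLR3. It was in 2.77% of 17323 windows of tested genes, 3.19% of 21271 windows of genes in the tables, and 3.57% of all 35116 windows. OAS3 held it at -143 to -134 and at -12 to -3 from the start, and IFI6 held 3 copies, beginning at -156, -115 and -93. IFIH1 also held 3 copies, beginning at -159, -153 and -21, of which the first and second overlap. In EIF2AK2 it spanned the start, from -6 to 4. The shorter core was also in DDX58, so in 6 of the 8. It was in 17.6% of the windows of tested genes and 19.4% of those of genes in the tables. These shares count windows, while the members were counted by gene and chosen as innate RNA sensing genes. No letters of either form were in the windows of MAVS or ADAR. A match is a description of the letters and not a bound site.

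**Figure D1:**
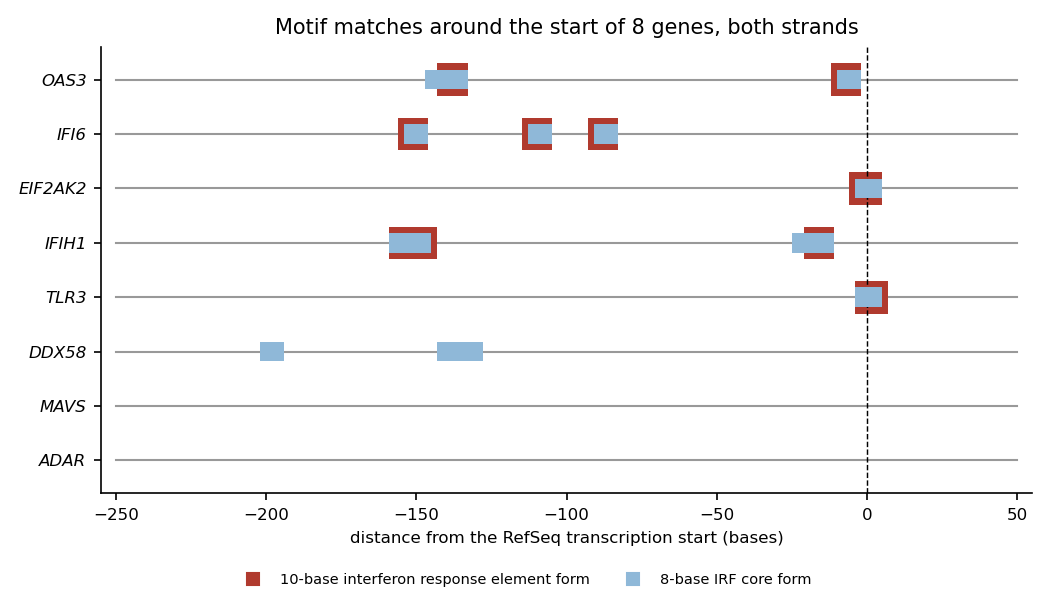
Matches to the 10-base form (red) and the 8-base AANNGAAA form (blue) by distance in bases from the RefSeq start (dashed line) in the 8 genes with a window. OAS3 and IFI6, which rose, hold 2 and 3 copies of the longer form. IFIH1 and TLR3, which lay near the detection limit, hold 3 and 1, and EIF2AK2, which did not pass the test, holds 1.

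Library totals ranged from 15430000 to 21565013 counts, and siControl replicate 3 was the shallowest. METTL3 was lower in every siMETTL3 library, at 31.8 to 34.3 CPM, the count scaled to library size, against 52.8 to 56.2 CPM in siControl. Its log2 fold change, siMETTL3 over siControl (log2 change for short), was -0.71 (SE 0.070, edgeR FDR 4.68e-06). The METTL3 span shares 1043 bases with TOX4, whose reads there count for both genes. All 12 sympathetic neuroblastoma markers were above 10 CPM in every library, but their sum differed, at 6541 to 6973 CPM in siControl and 9248 to 9807 CPM in siMETTL3. Of the 12, 7 were called higher and 2 lower, among them TH (log2 change 1.52, edgeR FDR 1.89e-07), MYCN (0.62, FDR 5.17e-06) and ISL1 (-1.18, FDR 6.06e-08), and their part in the results below was not tested. Of 8 leukocyte markers, 7 were below 1 CPM in every library; the list summed to 2.80 to 3.48 CPM in siControl and 2.24 to 2.85 CPM in siMETTL3. Of the fibroblast markers 3 of 6, and of the endothelial markers 1 of 4, were below 1 CPM throughout. The fibroblast sums ranged from 90.1 to 104 CPM in siControl and from 92.7 to 101 CPM in siMETTL3, mostly PDGFRB; within the list COL1A1 rose from 2.96 to 5.26 CPM (edgeR FDR 0.0200). The endothelial sums ranged from 5.64 to 7.001 and from 7.14 to 9.84 CPM, with VWF higher (log2 change 0.68, edgeR FDR 0.00592), and the part of such cells in the results was not tested.

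Of the 9 genes, 7 passed the filter on low counts, DHX58 through 3 of the 6 libraries. OAS3 and IFI6 were higher in siMETTL3 and no member was lower at an edgeR FDR under 0.05. The share of all 15311 tested genes called was 37.8%, with 18.6% higher and 19.2% lower, and a count of 2 among 7 does not tell the members from genes in general. No member was lower at an unadjusted p under 0.05 (0 in edgeR), and DESeq2 and limma-voom also called 0 lower. The median log2 fold change of the 7 was 0.078, against -0.0021 over all tested genes. OAS3 and IFI6 were also the members whose groups did not overlap, where 49.9% of all tested genes did not overlap, 24.8% higher and 25.1% lower.

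**Figure D2:**
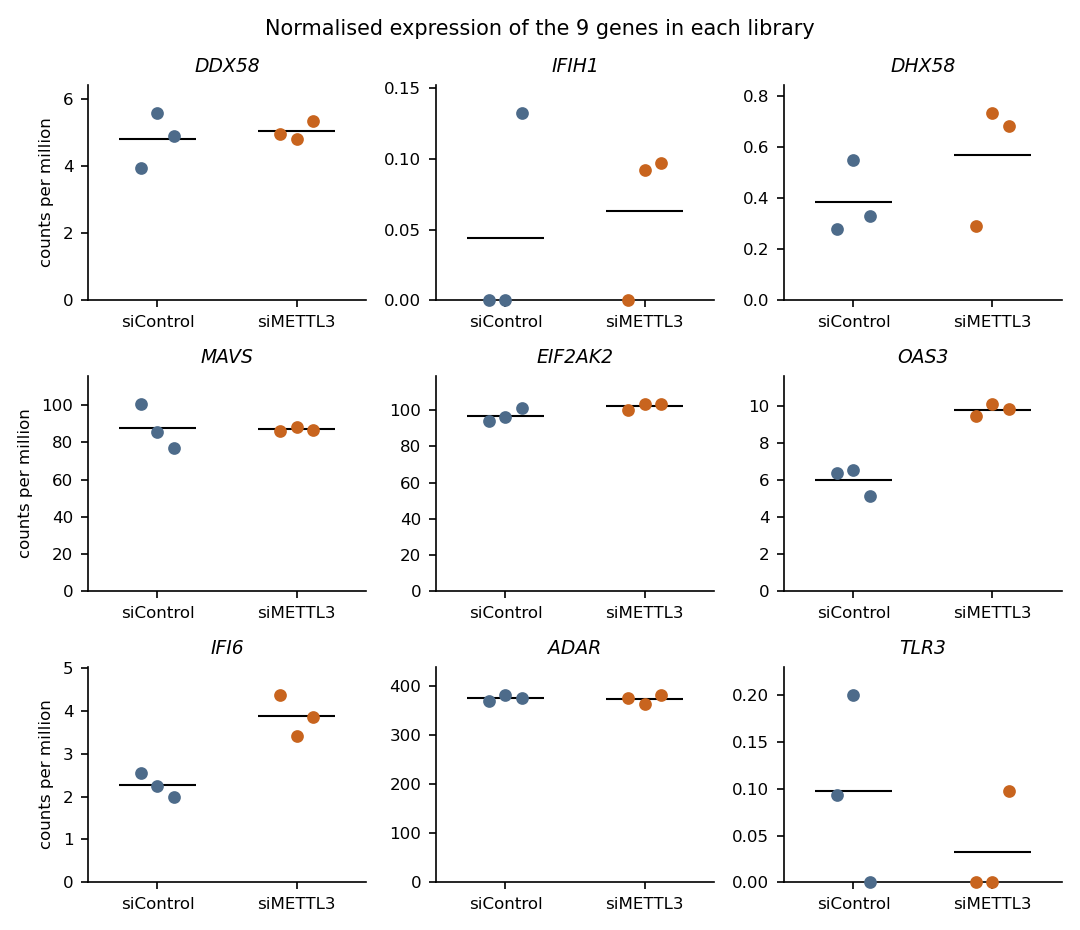
Normalised expression in CPM of each of the 9 genes, with 1 point per library (siControl blue, siMETTL3 orange), a line at the group mean and a separate axis from 0 for each gene. Every siMETTL3 library lies above every siControl library for OAS3 and IFI6, and the groups overlap in the other 7 panels.

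DDX58, the gene of RIG-I (chromosome 9, 32455302 to 32526208, minus strand), was measured at 3.94, 5.61 and 4.91 CPM in siControl and at 4.96, 4.82 and 5.36 CPM in siMETTL3. The siMETTL3 values lay within the range of the siControl values. Its log2 fold change was 0.069, with a 95% confidence interval from -0.31 to 0.45 (edgeR FDR 0.791), so a change of either sign within these bounds was not resolved. Exons cover 14.6% of the DDX58 span, where GENCODE release 44 places another protein-coding gene on the same strand. Reads outside DDX58 exons can thus be part of the count.

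IFIH1, the gene of MDA5 (chromosome 2, 162267074 to 162318684, minus strand), had 0, 0 and 2 counts in siControl and 0, 2 and 2 in siMETTL3. TLR3 (chromosome 4, 186069152 to 186088069) had 2, 4 and 0 counts in siControl and 0, 0 and 2 in siMETTL3. Neither gene was tested, and 5 of the 6 TLR3 values and all IFIH1 values were below 3 counts, the limit that a count of 0 allows. That limit takes reads as independent and was 0.138 to 0.199 CPM, depending on the library. Most low counts were even, and where both reads of a pair were counted the limit is higher. No change of IFIH1 or TLR3 was detectable at this depth, in either direction.

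DHX58 encodes LGP2, a relative of RIG-I without its signalling domains (chromosome 17, 42101404 to 42112714, minus strand). It had 6, 11 and 5 counts in siControl and 6, 16 and 14 in siMETTL3. The siMETTL3 libraries lay on either side of siControl replicate 2. The log2 fold change was 0.55 with an interval from -0.57 to 1.67 (edgeR FDR 0.441).

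Of 15 listed cofactors of the RIG-I-like receptors 14 were tested, with 3 higher, 3 lower, 8 without a call and a median log2 fold change of 0.067. Here and in the lists that follow, counts stand beside 18.6% of all tested genes higher and 19.2% lower (37.8% called), and nothing particular to a list is read from its count. TRIM25, the ubiquitin ligase that activates RIG-I, rose from 56.1 ± 2.42 to 69.4 ± 2.60 CPM (SD, n = 3; log2 fold change 0.31, edgeR FDR 0.00191); its span overlaps C17orf67 and DGKE. ZNFX1, an RNA helicase that senses viral RNA and overlaps DDX27, rose (log2 change 0.27), and TRIM65, the ubiquitin ligase of MDA5, fell (-0.25). TRIM14 (0.23, overlapping NANS), CYLD (-0.31) and DHX15 (-0.17) complete the 6 and were named after their values were seen. TRIM25 was the only gene of the 6 past the threshold in all fits that left out a library. ZNFX1 was lost without siControl replicate 2 or siMETTL3 replicate 2 (edgeR FDR up to 0.0922), TRIM65 without siControl replicate 2 or without replicate 1 or 3 of siMETTL3 (up to 0.115). TRIM14 and DHX15 were lost without siControl replicate 2 or any siMETTL3 replicate (up to 0.125 and 0.121), and CYLD without replicate 1 of either group or siMETTL3 replicate 2 (up to 0.196). CYLD was also lost with total count (FDR 0.0682) or upper quartile scaling (FDR 0.0522).

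MAVS, the adaptor that both cytosolic receptors use (chromosome 20, 3846799 to 3876123), was measured at 101, 85.4 and 76.8 CPM in siControl and at 86.2, 88.5 and 86.8 CPM in siMETTL3. The siControl libraries spread over a range that held all siMETTL3 values. The log2 fold change was -0.012 with an interval from -0.19 to 0.17 (edgeR FDR 0.929).

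In the relay below MAVS and TLR3, 4 of 23 tested genes rose and 1 fell, beside 37.8% of all tested genes called, with a median log2 fold change of 0.047. TICAM1 encodes TRIF, the adaptor of TLR3. It was measured at 2.18, 1.60 and 1.99 CPM in siControl and at 4.57, 4.59 and 3.51 CPM in siMETTL3, without overlap (log2 change 1.13, SE 0.22, edgeR FDR 0.00124). TRAF3, which links MAVS and TRIF to the kinases, rose from 46.6 ± 5.14 to 64.7 ± 3.80 CPM (log2 change 0.47, edgeR FDR 0.000555). IKBKE, a kinase of IRF3, and CASP8, a protease recruited to the same complexes, rose by 0.81 and 1.00 on the log2 scale from 4.29 and 1.48 CPM (edgeR FDR 0.00302 and 0.00706); both were named after their values were seen. JUN, a subunit of the AP-1 factor, fell from 36.3 ± 3.14 to 20.2 ± 0.378 CPM (log2 change -0.85, edgeR FDR 7.37e-06). The calls of these 5 genes held in each fit that left out a library. The kinase gene TBK1 (log2 change -0.029, edgeR FDR 0.775) and the factor genes IRF3 (-0.012, FDR 0.953) and RELA (-0.085, FDR 0.452) did not pass the test.

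Interferon genes themselves had few or no counts. Of the 21 in the tables, 18 had 0 counts in all 6 libraries, IFNB1 among them. Among reads assigned to genes, a count of 0 allows up to 0.138 to 0.199 CPM per library if reads are independent. It allows more where both reads of a pair were counted. IFNA17 and IFNL3 had 2 counts each in siControl replicate 1 alone. IFNK, the keratinocyte interferon, had 2, 4 and 4 counts in siControl and 0, 2 and 10 in siMETTL3, with overlapping groups. Of these, 3 libraries were above the 3-count limit, which is higher for reads counted in pairs. The IFNK span overlaps MOB3B. No interferon gene was tested.

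Among the interferon receptors and the JAK-STAT pathway, 4 of 15 tested genes fell and 1 rose, beside 37.8% of all tested genes called (median log2 fold change -0.14). TYK2, a kinase of the type I receptor, fell from 63.1 ± 3.60 to 46.2 ± 4.18 CPM (log2 change -0.45, edgeR FDR 0.000483). PIAS1, a SUMO ligase that inhibits STAT signalling and whose span overlaps CALML4 and AC107871.1, rose from 148 ± 3.06 to 179 ± 5.19 CPM (log2 change 0.27, edgeR FDR 0.00136). STAT2 (-0.39, FDR 0.0172) and JAK1 (-0.14, FDR 0.0471; overlapping RAVER2) also fell and were named after their values were seen. Both lost their calls without any single library other than siControl replicate 3, with an FDR up to 0.0666 for STAT2 and 0.148 for JAK1. JAK1 was also lost with all 6 libraries under total count scaling (FDR 0.0950), upper quartile scaling (0.0730), both other filters (0.0508 and 0.0532), DESeq2 (0.0732) and dispersions without the robust option (0.0540). The receptor genes IFNAR1 (-0.19, FDR 0.0664) and IFNAR2 (0.20, FDR 0.211) did not pass.

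**Figure D3:**
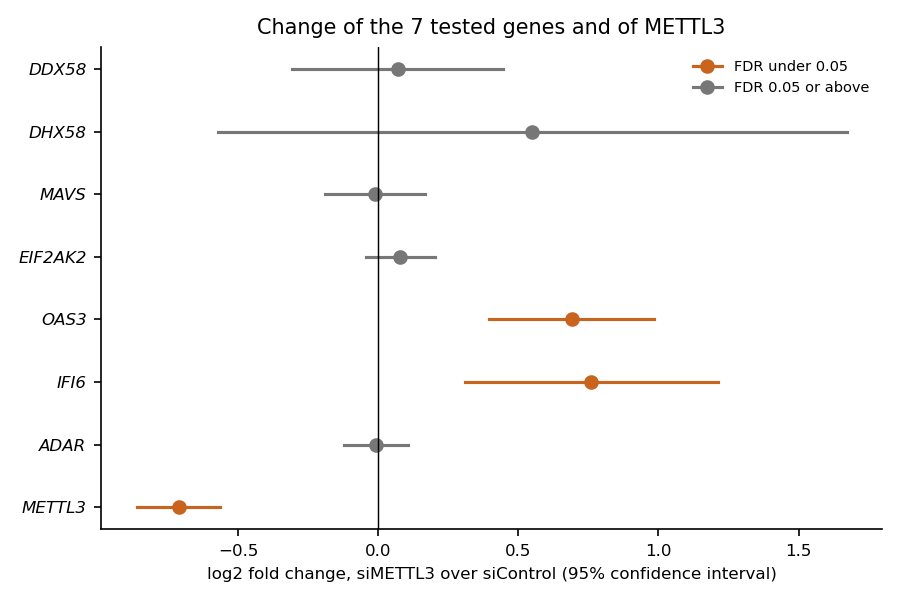
Log2 fold change of siMETTL3 over siControl with its 95% confidence interval for the 7 tested genes and METTL3, coloured by FDR. The intervals of OAS3 and IFI6 lie above 0 and that of METTL3 below it, and the other 5 include 0, with the widest for DHX58.

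EIF2AK2, which encodes the kinase PKR (chromosome 2, 37099210 to 37157065, minus strand), was measured at 93.9, 96.1 and 101 CPM in siControl and at 100.2, 103 and 104 CPM in siMETTL3. The groups overlapped by siControl replicate 3 and siMETTL3 replicate 1. Its log2 fold change was 0.078 with an interval from -0.044 to 0.20 (edgeR FDR 0.305), and the last 35 bases of its span overlap GPATCH11.

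Of 16 listed regulators of PKR and parts of the eIF2 machinery, 4 fell and 1 rose (median log2 fold change -0.11), beside 37.8% of all tested genes called. PRKRA, the protein activator of PKR, fell from 78.9 ± 4.01 to 61.3 ± 3.13 CPM (log2 change -0.37, edgeR FDR 0.000695; overlapping PJVK). EIF2S3, the gamma subunit of eIF2, of which PKR phosphorylates the alpha subunit, fell from 262 ± 9.10 to 189 ± 5.95 CPM (log2 change -0.47, edgeR FDR 2.27e-05). EIF2AK1, the heme-regulated kinase of eIF2, fell by 0.29 on the log2 scale (overlapping AIMP2 and ANKRD61). EIF2B4 (-0.44) and EIF2B3 (0.22), subunits of the exchange factor of eIF2, moved in opposite directions and were named after their values were seen. EIF2B3 was lost without siMETTL3 replicate 1 or 2 (edgeR FDR up to 0.0739). The gene of the alpha subunit, EIF2S1, did not pass (-0.11, edgeR FDR 0.189).

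OAS3 (chromosome 12, 112938444 to 112973251) was measured at 6.40, 6.56 and 5.18 CPM in siControl and at 9.48, 10.1 and 9.84 CPM in siMETTL3. The lowest siMETTL3 library was well above the highest siControl library. The gene rose 1.61-fold, a log2 fold change of 0.69 (SE 0.14, 95% confidence interval 0.40 to 0.99, edgeR FDR 0.00141). The log2 fold change stayed between 0.60 and 0.75 under all alternatives, and the highest FDR was 0.0105. The span overlaps no other gene of the tables, and the later GENCODE release 44 places a lncRNA on the opposite strand within it, whose reads would be counted too.

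In the rest of the 2-5A pathway, 1 of 4 tested genes rose and 2 fell. OAS1, which neighbours OAS3 and makes the same messenger, was measured at 1.30, 0.701 and 0.796 CPM in siControl and at 2.23, 1.65 and 2.34 CPM in siMETTL3, without overlap (log2 change 1.13, SE 0.32, edgeR FDR 0.0136). Its call was lost without siControl replicate 2 (FDR 0.0643), siMETTL3 replicate 1 (0.0538) or siMETTL3 replicate 3 (0.0576). OAS2 and OASL had 16 and 13 counts over all 6 libraries and were not tested. PDE12, which degrades 2-5A, fell from 48.9 ± 2.16 to 39.1 ± 2.32 CPM (log2 change -0.32, edgeR FDR 0.00327). ABCE1, a ribosome recycling factor, fell by 0.25 on the log2 scale (edgeR FDR 0.00410; overlapping ANAPC10 and OTUD4).

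IFI6 (chromosome 1, 27666064 to 27672198, minus strand) was measured at 2.55, 2.25 and 1.99 CPM in siControl and at 4.37, 3.40 and 3.85 CPM in siMETTL3, from 30 to 90 counts a library. The siMETTL3 libraries were all above the siControl libraries. The gene rose 1.69-fold, a log2 fold change of 0.76 (SE 0.21, interval 0.31 to 1.21, edgeR FDR 0.0113). Without siMETTL3 replicate 1 the log2 fold change was 0.67 and the call was lost (FDR 0.0591); its FDR lay between 0.00995 and 0.0591 across the alternatives. Exons cover 15.3% of the IFI6 span, and GENCODE release 44 places 2 lncRNAs in that span, so reads outside IFI6 exons can be part of the count.

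The other interferon-stimulated genes were mostly too low to test. Of 50 listed, 29 were not tested, among them ISG15 (23 counts over 6 libraries), MX1 (8), IFI44L (10), IFITM1 (0) and CXCL10 (0), which are strongly induced in interferon-treated cells. Also untested, BATF2 (48 counts), TRIM21 (30) and DTX3L (6) were higher in siMETTL3 without overlap, beside 24.8% of all tested genes. Their means went from 0.16 to 0.60, 0.15 to 0.35 and 0 to 0.095 CPM. They were named after their values were seen, and the groups of the remaining untested genes overlapped. Of the 21 tested, 4 rose and 3 fell, beside 37.8% called over all tested genes, with a median log2 fold change of 0.19. LGALS3BP, a secreted glycoprotein, rose from 4.69 ± 0.549 to 8.04 ± 1.22 CPM (log2 change 0.78, edgeR FDR 0.00226), and PML, the scaffold of nuclear bodies, rose from 12.1 ± 1.01 to 17.4 ± 1.84 CPM (0.51, FDR 0.00306). UBE2L6, the enzyme that passes ISG15 to its targets, fell from 20.4 ± 0.794 to 12.7 ± 0.447 CPM (log2 change -0.68, edgeR FDR 0.000105). PLSCR1, a phospholipid scramblase, fell (-0.33), as did the aminopeptidase gene LAP3 (-0.21), and the helicase gene HELZ2 (0.93) and the exonuclease gene ISG20 (0.63) rose; these 4 were named after their values were seen. The HELZ2 groups overlapped: siMETTL3 replicate 1, at 2.62 CPM, lay within the siControl range of 2.26 to 2.64 CPM, below replicates 2 and 3 at 6.06 and 5.50 CPM. HELZ2 was lost without siControl replicate 2, siMETTL3 replicate 2 or 3 (edgeR FDR up to 0.113) and in limma-voom (FDR 0.0586). ISG20 was lost without siControl replicate 2 or any siMETTL3 replicate (up to 0.161). LAP3 was lost without siControl replicate 2 or 3 or siMETTL3 replicate 1 or 2 (up to 0.148) and with total count scaling (0.0503). IFIT1 (log2 change 0.26, FDR 0.307), IFIT2 (0.45, FDR 0.119) and IFIT3 (0.46, FDR 0.330), all overlapping LIPA, did not pass the test.

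**Figure D4:**
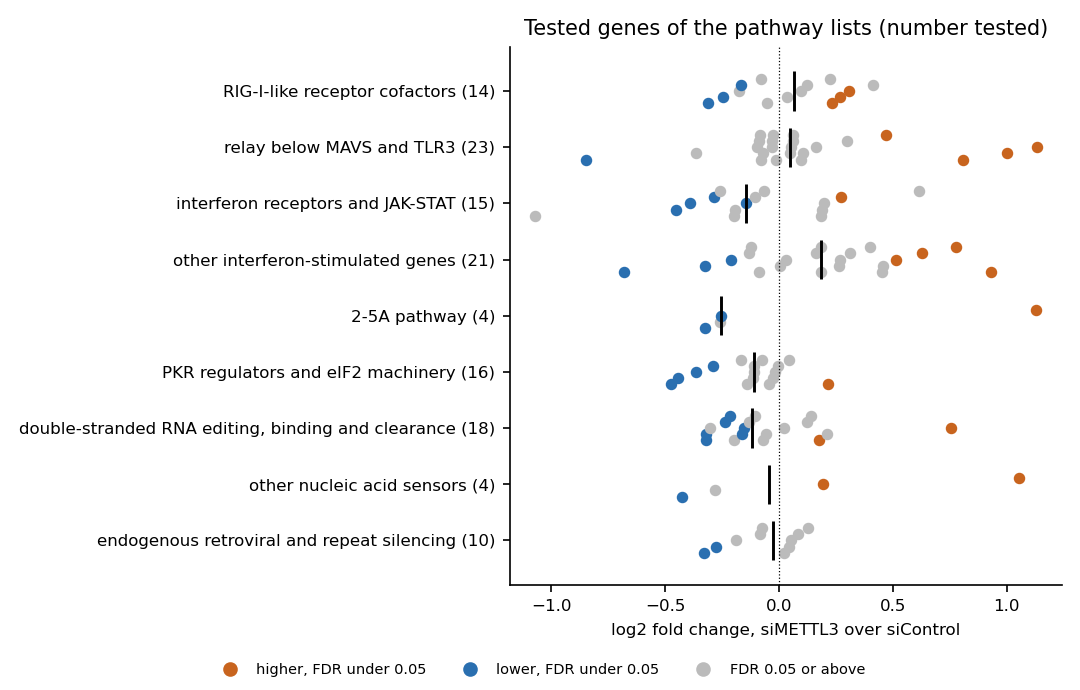
Log2 fold change of each tested gene in the 9 pathway lists that had tested genes (orange higher, blue lower, grey not past an FDR of 0.05), with a black line at the list median. The largest rises are those of TICAM1, OAS1, UNC93B1 and CASP8, and the medians lie between -0.26 and 0.19.

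ADAR (chromosome 1, 154582057 to 154628013, minus strand) was the most abundant of the 9 genes. It was measured at 370, 382 and 377 CPM in siControl and at 376, 363 and 383 CPM in siMETTL3. The groups overlapped throughout, and the log2 fold change of -0.0079 had an interval from -0.12 to 0.11 (edgeR FDR 0.926). The count covers the whole gene, so the interferon-inducible and the constitutive isoform were not told apart.

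Of 18 other tested genes of double-stranded RNA editing, binding and clearance, 2 rose and 6 fell (median log2 fold change -0.12), beside 37.8% of all tested genes called. ADARB1, the second active editing enzyme of this family, was measured at 56.1, 55.6 and 43.3 CPM in siControl and at 89.7, 89.1 and 84.0 CPM in siMETTL3. The groups were far apart (log2 change 0.76, SE 0.087, edgeR FDR 2.54e-05). RNASEH2B fell from 89.7 ± 4.99 to 71.8 ± 2.20 CPM and RNASEH2C, which overlaps KAT5, from 60.0 ± 3.91 to 48.0 ± 1.97 CPM (both -0.32 on the log2 scale; edgeR FDR 0.00124 and 0.00271). They encode subunits of the nuclease that clears RNA from DNA hybrids, and the catalytic subunit gene RNASEH2A, overlapping HOOK2 and THSD8, was also lower (-0.21, FDR 0.0271). RNASEH2A was named after its values were seen, and its call was lost without siControl replicate 2 or without replicate 1 or 3 of siMETTL3 (up to 0.105). STAU1, a double-stranded RNA binding protein also named afterwards, rose (0.18, edgeR FDR 0.0388), and was lost without siControl replicate 2 or any siMETTL3 replicate (up to 0.167), in DESeq2 (0.0507) and among genes without overlaps (0.0634). The helicase gene DHX9 (-0.24, FDR 0.00378), DROSHA (-0.16, FDR 0.0275) and ILF2 (-0.15, FDR 0.0498; overlapping SNAPIN) complete the 6 that fell. DROSHA, the nuclease that starts miRNA processing, and ILF2 were lost without siControl replicate 2 or any siMETTL3 replicate (FDR up to 0.117 and 0.201), and both with total count scaling (0.0512 and 0.0848). ILF2 was also lost with upper quartile scaling (0.0747), DESeq2 (0.0625) and 5 other settings (FDR up to 0.0570). DICER1 (-0.11, edgeR FDR 0.184) and the helicase gene SKIV2L (-0.20, FDR 0.0524) did not pass.

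Of 12 other nucleic acid sensors and their partners, 4 passed the filter on low counts, with 2 higher and 1 lower. AIM2, a sensor of double-stranded DNA, was measured at 68.2, 90.0 and 156 CPM in siControl and at 75.9, 86.5 and 95 CPM in siMETTL3, with overlapping groups (log2 change -0.28, edgeR FDR 0.590). STING1 and IFI16 had 12 and 10 counts over all 6 libraries, and CGAS was measured at 0.364 and 0.416 CPM. UNC93B1, which carries TLR3 and its relatives to endosomes, was measured at 3.75, 3.50 and 2.39 CPM in siControl and at 6.75, 6.61 and 6.96 CPM in siMETTL3, a rise without overlap (log2 change 1.05, SE 0.18, edgeR FDR 0.000504). DDX41, a helicase reported as a DNA sensor, fell from 71.5 ± 0.782 to 53.3 ± 0.974 CPM (-0.42, edgeR FDR 0.000103). NLRP1, an inflammasome sensor that overlaps AC055839.2, rose by 0.19 on the log2 scale (edgeR FDR 0.0447). It was lost without any single library other than siControl replicate 1 (FDR up to 0.154), in DESeq2 (0.0535) and with dispersions that were not robust (0.0505).

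Of 10 genes that silence endogenous retroviruses and repeats, a source of double-stranded RNA inside cells, 2 fell and none rose (0 in edgeR). TRIM28, the corepressor of KRAB zinc finger proteins, fell from 381 ± 16.5 to 303 ± 6.71 CPM (log2 change -0.33, edgeR FDR 0.000460). KDM1A, a histone demethylase, fell from 381 ± 15.0 to 314 ± 5.29 CPM (-0.28, edgeR FDR 0.00137). SETDB1, DNMT1 and UHRF1 did not pass (log2 fold changes 0.054, 0.084 and -0.081; edgeR FDR 0.544, 0.240 and 0.307). Over all 10 lists, each gene once, 44 of 125 tested genes were called, 18 higher and 26 lower, beside 37.8% of all tested genes.

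Levels were compared between genes per kilobase of the canonical GENCODE transcript, a scale that still includes intronic reads. In siControl the order was ADAR (56.9 CPM per kb), EIF2AK2 (9.73), MAVS (7.47), IFI6 (2.79), DDX58 (1.04), OAS3 (0.916) and DHX58 (0.149), with TLR3 and IFIH1 at 0 to 0.0371 CPM per kb in any siControl library. DDX58 and OAS3 were not separated in siControl, where their libraries ranged from 0.852 to 1.21 and from 0.785 to 0.994 CPM per kb. In siMETTL3, OAS3 (1.44 to 1.54 CPM per kb) lay above DDX58 (1.04 to 1.16), and the other 5 tested members kept their places.

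Genes whose log2 CPM followed the called members most closely over the 6 libraries were C1QL1 and IGFBP5 for OAS3 (Pearson's r 0.999 for both) and IDI2 and PPME1 for IFI6 (0.997 for both). With 6 libraries in 2 groups many genes had a high r: 1029 of 15310 genes passed the looser limit of 0.95 with OAS3 and 554 with IFI6. Counts at higher limits are not reported here.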

How the data were processed

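Poly(A) RNA from Kelly cells was measured by RNA-seq in 6 libraries, 3 siControl and 3 siMETTL3, grouped by their titles. Per the file headers, the authors made the deposited counts with featureCounts 1.5.3 and a protein-only GENCODE release 33 annotation. Reads were counted over the full span of a gene with its introns, for each gene they touch and without a strand option. No option to count pairs was set, and 75.4% to 82.2% of counts between 1 and 10 were even, so intervals cover counting of reads, not molecules. The submitters' processing notes name Trimmomatic 0.36, HISAT2 2.1.0 and GRCh38. The headers name picard files; whether duplicates were removed is not given in the sources used here. Spans of 33.1% of the genes overlap another gene of the table. Between libraries of a group, the chi-square per degree of freedom was 5.57 to 16.1 in siControl and 3.05 to 3.75 in siMETTL3, above sampling noise. The siControl libraries thus differed more among themselves, most of all replicates 1 and 3.

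Genes passing filterByExpr (15311 of 19923; minimum count 10) were scaled by TMM and tested in edgeR 4.0.16 (R 4.3.3) by quasi-likelihood F-test, all 6 libraries, no covariate, robust dispersions. FDR is Benjamini-Hochberg over all tested genes, threshold 0.05; intervals are 95%. CPM is relative to the TMM-scaled library size, and 0.5 CPM was added for the correlations. The limit of a count of 0 was set at 3 counts, which takes reads as independent and is too low for reads counted in pairs. The fit was tested on simulated data. The alternatives were RLE, upper quartile and total count scaling, no filter or at least 10 counts in each of the libraries, limma-voom (limma 3.58.1), DESeq2 1.42.0, dispersions not robust, a replicate block, each library left out, genes without overlaps and, added after seeing the data, halved counts.

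The members and the 10 pathway lists were chosen with earlier results of these data known, so lists are described by counts only. Named genes are METTL3, the members, the 3 called genes of lowest FDR in each list, interferon genes with any count, and the 2 genes most correlated with each called member; others are given to complete a count or as listed steps of the pathway, after their values were seen. DDX58 was matched as RIGI in RefSeq and GENCODE release 44, and IFNL4 has no row. Some genes of the lists are counted but not reported by name here.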

Additional observations from a re-analysis of the deposited data

How the results depend on the processing

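Of 116 values of the 7 tested members under the alternatives, 115 kept their side of the threshold and, where called, their direction. The exception was IFI6 without siMETTL3 replicate 1 (log2 fold change 0.67, FDR 0.0591). Leaving out each library in turn, the number of members higher went from 1 to 2, and none was lower (0 in each fit). The count of all genes higher went from 2091 to 3178 and lower from 2119 to 3216; that of list genes higher went from 11 (without siMETTL3 replicate 2) to 23 and lower from 17 (without siMETTL3 replicate 1) to 28. With genes that overlap no other gene, 1852 genes were higher and 1897 lower, of 9517 tested. For the other 45 named genes, 62 of 270 values with a library left out and 23 of 481 others lost their call, and none changed sign. With the replicate block, 6166 genes were called instead of 5786, OAS3 had a log2 fold change of 0.70 and IFI6 of 0.77, and 2 members were higher and 0 lower; ILF2, the interleukin enhancer binding factor, alone lost its call among the named genes (FDR 0.0525). Same-numbered libraries correlated at 0.052, 0.0595 and 0.103 in their deviations from the group means, against -0.0973 to 0.0479 for other pairs. The numbers were not taken as pairs because the labels name no batch. Every library correlated best with its own replicate number, a hint from the data and not the design. The change of pseudocount planned for tables of normalised values was not run, since the tests used counts; the correlations were computed with 1 pseudocount only. DHX58 gave no value with at least 10 counts in every library or with halved counts. IFIH1, TLR3 and the interferon genes are limited by depth. How reads that align to several places were counted is not reported here, so a count of 0 bounds only the assigned reads.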
